A study of Saccharomyces cerevisiae with 7 samples.

Results

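Short 3' UTRs are the 414 annotated 3' untranslated regions (UTRs) of 1 to 55 nt among the 2882 that the deposited annotation of the Saccharomyces cerevisiae transcriptome lists for protein-coding genes (14.4%). They were chosen by length alone: each 3' UTR entry of a gene whose systematic name starts with Y was measured as the difference of its end and start plus 1. The annotation accompanies a study of RNA folding in which RNA from log-phase yeast grown at 23 °C was refolded in the test tube in 10 mM magnesium and 100 mM KCl. The sample titles call it total RNA, while the other labels and the protocol describe total RNA selected for poly(A) tails before folding. The RNA was cut for 15 min with RNase V1, which cleaves base-paired RNA (4 libraries), or with nuclease S1, which cleaves single-stranded RNA (3 libraries). Cleavage values of these libraries were not analysed here, so the depth per library is unknown and no value below has a replicate error. All values describe the annotation of a single yeast transcriptome, the unit is the gene, and genes are not replicates, so no test over genes is given. Intervals in parentheses after a share or median are 95% intervals over genes (Wilson for shares, order statistics for medians) and cover counting error only.

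A 3' UTR runs from the base after the stop codon to the site where the transcript is cut and given its poly(A) tail. In yeast the cut is placed by A- and U-rich elements in the RNA, among them the efficiency element, read TATATA in DNA letters, an A-rich positioning element nearer the cut and U-rich stretches around it. The 3' UTR also carries binding sites for proteins that set the stability, translation and location of the mRNA.

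The shortest members end at or just past their stop codons, which is why the ends of 6 of them are shown. Each line gives the last 30 bases of the annotated transcript on the coding strand, 5' to 3', with the stop codon in capitals. The length after the stop codon is that of the deposited annotation, and the letters were read by gene name from the RefSeq R64 genome, whose coordinates differ from those of the annotation.
STE14 (chr4:1292371-1292400, minus strand): aggttggtgtcggaataccttttataTAAt
YLL053C (chr12:35502-35531, minus strand): aggcggcaggtcaaaagaaggaagacTGAg
DIF1 (chr12:1011620-1011649, minus strand): ggttaatggatccaagagaagacttTAAca
MNT3 (chr9:327969-327998, plus strand): atttctcgaacctggaatgctaatTGAgaa
ADH2 (chr13:873287-873316, minus strand): gatacgttgttgacacttctaaaTAAgcgg
NOB1 (chr15:430240-430269, minus strand): acagttccaaaaggagaagtTAGtgttttt

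The lengths within the set were spread toward the limit. The median short 3' UTR was 41 nt (quartiles 31 and 50 nt), against a median of 106 nt over all 2882 mRNAs. Only 9 members were 1 to 10 nt long, 37 were 11 to 20 nt, 55 were 21 to 30 nt, 99 were 31 to 40 nt and 214 were 41 to 55 nt. The limit cut through a continuous range of lengths: 19 mRNAs stood at 55 nt, among them ADE2, ALG5, BNA6, CAC2 and CNE1, and 18 at 56 nt, among them ARC15, ATP11, CAF16, CUE4 and EDC3.

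A 3' UTR of 1 nt was listed for STE14, which encodes the methyltransferase of prenylated proteins such as the a-factor pheromone, and for the uncharacterised reading frame YLL053C. That of STE14 lay at position 1292364 of chromosome 4 in the annotation, for which the sources used here name no genome build. DIF1, which regulates the location of ribonucleotide reductase, had 2 nt. MNT3, a mannosyltransferase, had 3 nt. ADH2, the glucose-repressed alcohol dehydrogenase that oxidises ethanol, had 4 nt on chromosome 13 (873286 to 873289). NOB1, the endonuclease that forms the end of the small subunit rRNA, had 7 nt, the mitochondrial malic enzyme MAE1 and the Rab GTPase YPT10 had 9 nt each, and the bud site GTPase RSR1 had 10 nt. At 11 nt stood 8 mRNAs: ALG13, CLN3, CSS3, DGK1, FES1, OM14, SNA4 and UBX4. CLN3 is a G1 cyclin, whose 11 nt lay on chromosome 1 (65768 to 65778) and whose 5' UTR was 319 nt long. ALG13 is the catalytic subunit of the enzyme that adds the second N-acetylglucosamine to the dolichol-linked sugar chain, and its membrane anchor subunit ALG14 was a member too, with 18 nt. Of the 17 mRNAs of 11 nt or less, MNT3, ALG13 and SNA4 were on the plus strand and the other members on the minus strand.

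Short 3' UTRs were unevenly divided between the DNA strands. Of the 414 members, 282 were on the minus strand (68.1%, 63.5 to 72.4%) and 132 on the plus strand, whereas 50.3% of all mRNAs with a 3' UTR were on the minus strand. Seen from the other side, 282 of 1449 minus-strand mRNAs had a 3' UTR of 55 nt or less (19.5%, 17.5 to 21.6%), against 132 of 1433 plus-strand mRNAs (9.21%, 7.82 to 10.8%). The share was higher on the minus strand on each of the 16 chromosomes. The gap was narrowest on chromosome 3, with 12.7% on the minus and 10.7% on the plus strand, and widest in percentage points on chromosome 1, with 31.8% on the minus and 14.3% on the plus strand. The minus-strand share was 74% among 3' UTRs of 21 to 40 nt and 63.1% at 41 to 55 nt, and it was 50.8% above 55 and up to 100 nt and 42.7% above 200 nt.

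**Figure D1:**
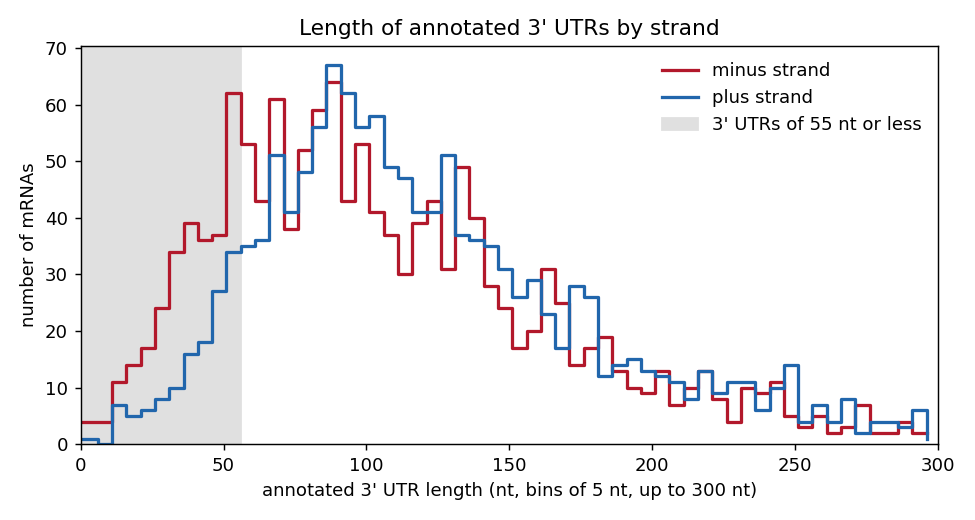
Number of mRNAs (vertical axis) by annotated 3' UTR length in bins of 5 nt up to 300 nt (horizontal axis), drawn separately for the minus strand (red) and the plus strand (blue), with lengths of 55 nt or less shaded. Throughout the shaded range the minus-strand line lies above the plus-strand line, with 282 minus-strand and 132 plus-strand mRNAs in all.

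The strands also differed in 3' UTR length as a whole, with a median of 98 nt on the minus strand and 113 nt on the plus strand, while their median 5' UTRs were 49 nt and 52 nt. The distance from the last TATATA within 100 nt to the annotated 3' end, taken over all mRNAs that hold this motif there, had a median of 24 nt on the minus strand (691 mRNAs) and 40 nt on the plus strand (657 mRNAs). Among members the same distance was 16 nt on the minus strand (112 mRNAs) and 26 nt on the plus strand (32 mRNAs). A motif wholly after the stop codon cannot lie farther from the 3' end than the 3' UTR is long. Shorter distances among members than among all are thus in part expected by construction. The part of strand in the results that follow, like the cause of the difference, was not tested.

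Short 3' UTRs were listed for genes of many functions. Of 32 function lists drawn from textbook knowledge, 27 held at least 1 member, and 12 had a share above the 14.4% of all mRNAs. The lists are partial: some members share a listed function without standing on its list. Each share, and each gene named as shortest, holds for the listed mRNAs only. The interval left out 14.4% for 5 lists, peroxisome biogenesis and vacuolar sorting factors above it and the respiratory chain, mitochondrial import and translation factors below it. No share was adjusted for the number of lists. In all, 126 members (30.4%) stood on a list, against 35.7% of all mRNAs with a 3' UTR. Of these 126 members 94 were on the minus strand (74.6%), against 48% of all listed mRNAs. Members on the minus strand outnumbered those on the plus strand in 19 of the 27 lists with a member, and the reverse held in 5.

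The largest share was that of peroxins, the proteins that build peroxisomes and import their enzymes. A short 3' UTR was listed for 5 of 12 (41.7%, 19.3 to 68%), led by PEX8 (20 nt), a peroxin inside the organelle, and PEX31 (33 nt), which acts on peroxisome size and number. Of these 5 members 4 were on the minus strand, as were 7 of the 12 listed. Among factors of vacuolar protein sorting, 6 of 20 were members (30%, 14.5 to 51.9%), led by the endosomal Rab GTPase VPS21 (22 nt) and the retromer subunit VPS35 (28 nt). Of these 6 members 4 were on the minus strand, as were 11 of the 20 listed.

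Enzymes of amino acid biosynthesis gave 14 of 66 (21.2%, 13.1 to 32.5%). LYS2 (24 nt), the aminoadipate reductase, and MET5 (26 nt), a sulfite reductase subunit, had the shortest. The list holds enzymes of several routes, and its members included 3 enzymes of lysine synthesis and 4 of sulfate assimilation. Secretory pathway factors gave 12 of 70 (17.1%), led by YPT10 (9 nt) and the vesicle protein ERV41 (12 nt). Both GET1 (54 nt) and GET2 (25 nt), which form the receptor for tail-anchored proteins at the endoplasmic reticulum, were among them. Nuclear pore and transport factors gave 8 of 42 (19%), led by YRB2 (16 nt), a Ran-binding protein of nuclear export, and NUP145 (22 nt), a nucleoporin. For DNA replication the count was 5 of 27 (18.5%), with POL30 (28 nt), the sliding clamp of DNA polymerase, and the primase PRI1 (42 nt) at the short end. The proteasome list gave 6 of 33 (18.2%), with the core subunits PUP1 (27 nt) and PUP2 (40 nt) at the short end.

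Genes of actin, tubulin and septins gave 5 of 29 (17.2%), led by the myosin MYO4 (35 nt) and the septin CDC10 (40 nt). All 5 of these members were on the minus strand, as were 21 of the 29 listed. The following lists, too, had intervals that hold the 14.4% of all mRNAs. Chaperones gave 8 of 49 (16.3%), led by the cyclophilin CPR6 (31 nt) and SIS1 (33 nt). Glycolysis and fermentation gave 4 of 24 (16.7%): besides ADH2 these were the aldolase FBA1 (28 nt), the minor pyruvate kinase PYK2 (32 nt) and the main pyruvate decarboxylase PDC1 (54 nt). The ribosome biogenesis list gave 10 of 71 (14.1%), with UTP21 (30 nt) and ERB1 (33 nt) at its short end. It leaves out other members of this function, among them NOB1 (7 nt) and SDO1 (38 nt). Cytosolic ribosomal proteins gave 13 of 137 (9.49%, 5.63 to 15.6%), mitochondrial ribosomal proteins 6 of 51 (11.8%), and RNA polymerase subunits 3 of 30 (10%, 3.46 to 25.6%), led by RPB11 (26 nt). The machinery that makes 3' ends had 2 members of 9 listed (22.2%, 6.32 to 54.7%): SSU72, a phosphatase of the cleavage and polyadenylation factor (39 nt), and NRD1, which terminates short non-coding transcripts (55 nt).

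At the low end stood lists with 2 members or fewer, of which only the respiratory chain, translation factors and mitochondrial import had intervals wholly below 14.4%. COX5B (34 nt), the cytochrome c oxidase subunit used at low oxygen, was the single member among 38 mRNAs of respiratory complexes and the ATP synthase (2.63%, 0.466 to 13.5%). ECM33 (41 nt) was the single member among the 35 cell wall proteins on their partial list (2.86%, 0.506 to 14.5%). ERG25 (49 nt) was the single one among the 25 listed enzymes of ergosterol and isoprenoid synthesis (4%, 0.71 to 19.5%). The list of transcription factors that bind DNA had 2 members of 23 (8.7%, 2.42 to 26.8%), ARG80 (49 nt) and SFP1 (52 nt). It does not hold every such factor: RDS2 (17 nt), a gluconeogenesis transcription factor, was a member outside it. General transcription factors had 2 of 25 (8%, 2.22 to 25%), SUA7 (26 nt) and MED6 (54 nt). None was found among the listed 36 translation factors (upper bound 9.64%), 35 factors of mitochondrial protein import (9.89%), 19 ubiquitin enzymes (16.8%), 10 histones (27.8%) or 6 DNA repair factors (39%). Outside the ubiquitin list stood PRP19 (37 nt), a ubiquitin-protein ligase listed here with the splicing factors.

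**Figure D2:**
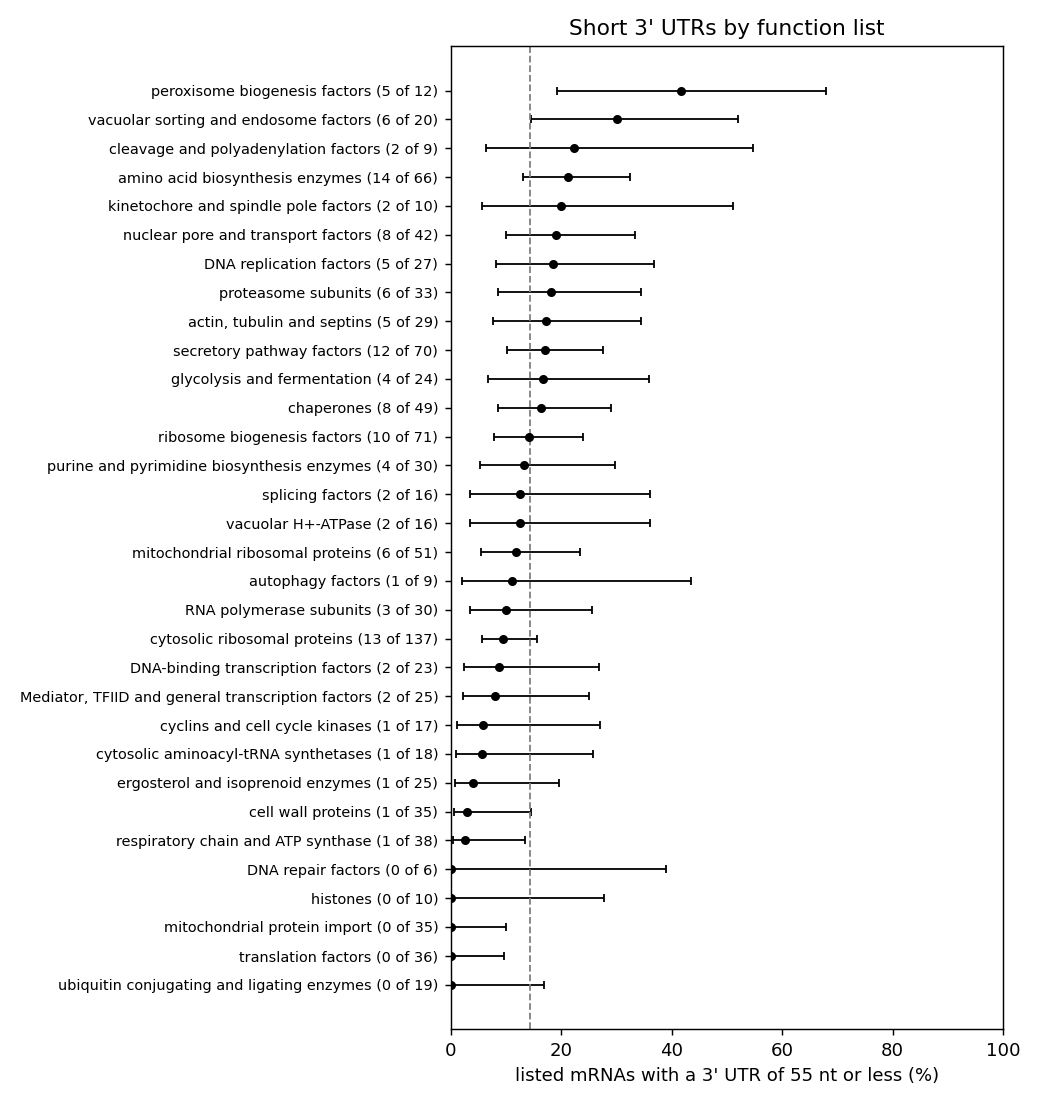
Percentage of the listed mRNAs of each function list that have a 3' UTR of 55 nt or less (horizontal axis), with points for the share and bars for its 95% Wilson interval. The dashed line marks the 14.4% of all mRNAs with a 3' UTR, and the numbers after each name are members and listed mRNAs. Most intervals cross the line, with peroxisome biogenesis at the top (5 of 12) and 5 lists at 0.

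Most ribosomal protein genes, and some others, exist in a pair of copies named A and B. Of the 122 copies in 61 such pairs with both 3' UTRs listed, 13 were members (10.7%, 6.33 to 17.4%), an interval that holds the 14.4% of all mRNAs. These 13 stood in 13 different pairs, 10 of them on the minus strand, as were 60 of the 122 copies. At shares this low few pairs with 2 members could be found, so their number of 0 is not read as a property of copies. RPL8B had 53 nt and its copy RPL8A 468 nt. COX5B had 34 nt, whereas COX5A, the subunit used in air, had 256 nt. RPL6A had 53 nt and RPL6B 249 nt, RPS30B had 42 nt and RPS30A 164 nt, and RPS26A had 46 nt and RPS26B 145 nt. The differences over the 13 pairs ran from 22 nt, for RPL33A (50 nt) and RPL33B (72 nt), to 415 nt for RPL8B and RPL8A.

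**Figure D3:**
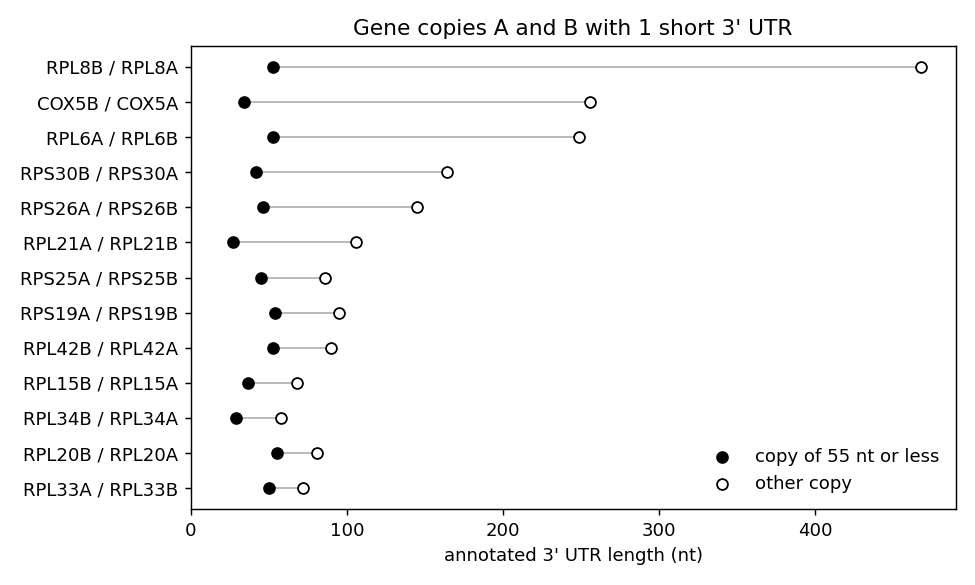
Annotated 3' UTR length in nt (horizontal axis) of the 13 pairs of gene copies with 1 member, with the copy of 55 nt or less as a filled point and the other copy as an open point. The open points lie between 58 and 468 nt, and RPL8A is the farthest from its copy.

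Genes with short 3' UTRs covered nearly the whole range of coding lengths. Their median coding length was 1108.5 nt (1026 to 1182 nt), against 1072.5 nt over all mRNAs with a 3' UTR, which lies within that interval. The strands differed: the median was 1027.5 nt (969 to 1119 nt) for members on the minus strand, against 1050 nt for all on that strand, and 1267.5 nt (1131 to 1407 nt) for members on the plus strand, against 1092 nt for all on that strand. The longest coding regions were those of GLT1, the glutamate synthase (6438 nt, 3' UTR 37 nt), STT4, a phosphatidylinositol kinase (5703 nt), UTP10, a factor of small ribosomal subunit assembly (5310 nt), NUP188, a nucleoporin (4968 nt), and ARO1, the enzyme that carries most steps of chorismate synthesis (4767 nt). Coding regions of 300 nt or less were listed for 10 members (2.42%, 1.32 to 4.39%), against 4.75% of all. YOR302W was the shortest at 78 nt. It is the upstream reading frame of CPA1, the arginine-regulated subunit of carbamoyl phosphate synthetase, and stands in the annotation as an mRNA of its own, with 154 nt before and 38 nt after its coding region. YMR158C-A (138 nt), YDR034C-A (177 nt), RPS30B (192 nt) and the kinetochore protein gene DAD4 (219 nt) followed. An intron was annotated in 22 members (5.31%, 3.54 to 7.91%), against 6.87% of all. It was 6.03% of members on the minus strand, against 6.21% of all on that strand, and 3.79% of members on the plus strand, against 7.54% of all on that strand.

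The 5' UTR of these mRNAs had a median of 47.5 nt (44 to 51 nt, 386 members), against 50 nt over all mRNAs with both UTRs. On the minus strand it was 45 nt (41 to 50 nt), against 49 nt for all on that strand, and on the plus strand 53.5 nt (44 to 71 nt), against 52 nt. No 5' UTR was listed for 28 members (6.76%), against 7.22% of all. A short 3' UTR came with a 5' UTR of 20 nt or less in 52 members (13.5%, against 12.1% of all) and with one of 150 nt or more in 42 (10.9%, against 13.3% of all). BRE5, a cofactor of a deubiquitinating enzyme, combined a 5' UTR of 712 nt with a 3' UTR of 14 nt, PPH21, a catalytic subunit of a protein phosphatase, 485 nt with 30 nt, and the uncharacterised YLR046C 421 nt with 23 nt. At the other end, the 5' UTRs of YDR034C-A and of HTS1, the histidyl-tRNA synthetase, were 2 nt long, and that of PFF1 5 nt.

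The distance to the next gene downstream was shorter in the median for genes with a short 3' UTR, for convergent as for tandem neighbours. For this comparison the neighbour was the next protein-coding gene downstream in R64, and the distance ran from stop codon to coding region at R64 positions, so that the length of the 3' UTR did not enter it. The median distance was 267.5 nt (249 to 287 nt) for members, against 305 nt (297 to 312 nt) over all mRNAs with a 3' UTR. A distance under 100 nt was found for 51 members (12.3%), against 6.18% of all. The neighbour was convergent, that is on the opposite strand and transcribed towards the member, for 195 of 414 members (47.1%, 42.3 to 51.9%), against 52% of all. With the neighbour taken from the annotation, which omits many genes, these shares were 51.2% and 51.6%, so the difference depended on that choice. Towards a convergent neighbour the median distance was 166 nt (147 to 194 nt), against 230.5 nt (219 to 240 nt) over all. Towards a tandem neighbour, on the same strand, it was 334 nt (307 to 375 nt), against 400 nt (385 to 420 nt) over all. The next length class, over 55 to 100 nt, stood close to the members, with a median of 281 nt (268 to 290 nt) over all neighbours, 190 nt (179 to 207 nt) to convergent and 355.5 nt (332 to 383 nt) to tandem ones, and with 47% convergent. Medians below those of all mRNAs were thus found in this class too.

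The medians of members lay below those of all mRNAs on both strands, but by more than the members' intervals only on the minus strand. On the plus strand the intervals of members held the medians of all on that strand, for convergent as for tandem neighbours. On the minus strand the convergent medians were 155 nt for members and 231 nt for all, and on the plus strand 193 nt and 230 nt. Their tandem medians were 339 nt and 394 nt on the minus strand and 327 nt and 407 nt on the plus strand. For 3' UTRs of 1 to 20 nt the median distance was 476.5 nt to a tandem neighbour (327 to 711 nt, 24 mRNAs) and 224.5 nt to a convergent one (118 to 328 nt, 22 mRNAs). These intervals hold the medians of all members as well as those of all mRNAs.

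**Figure D4:**
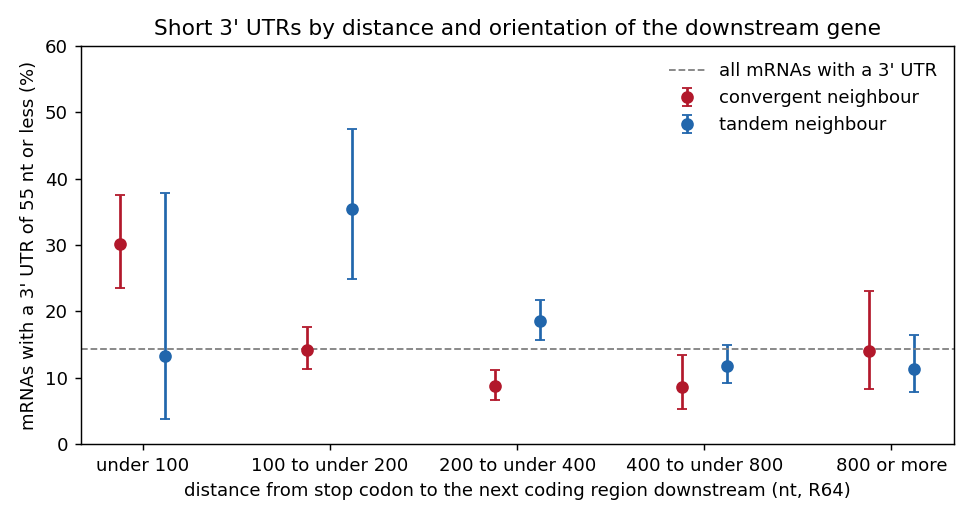
Percentage of mRNAs that have a 3' UTR of 55 nt or less (vertical axis) by distance from the stop codon to the next coding region downstream (horizontal axis, nt, R64), for convergent neighbours (red) and tandem neighbours (blue), with 95% Wilson intervals. The share was 30.1% under 100 nt and 8.7% at 200 to under 400 nt for convergent neighbours, and 35.4% at 100 to under 200 nt and 11.8% at 400 to under 800 nt for tandem neighbours. It did not fall steadily with distance. For tandem neighbours under 100 nt it was 13.3% (2 of 15). For convergent neighbours it was 8.6% at 400 to under 800 nt and 14.1% (12 of 85) at 800 nt or more. The dashed line is the 14.4% of all.

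NET1, a nucleolar protein of mitotic exit, overlapped the reading frame APQ13 on the other strand in R64, at a distance of -355 nt. The next shortest distance, 11 nt, belonged to IRC25, a proteasome assembly chaperone, and SDO1, a factor of large ribosomal subunit maturation, which face each other and are both members, with 34 nt and 38 nt. APS2, a clathrin adaptor subunit, stood 19 nt from CDC8, and PHO81, an inhibitor of a cyclin-dependent kinase in phosphate signalling, 27 nt from NAS6. The longest distances were those of JIP5 (3070 nt), ALG13 (1941 nt), RPL6A (1902 nt), MRX18 (1870 nt) and CSS3 (1775 nt), so that a 3' UTR of 11 nt could lie before a long stretch without a coding region.

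Overlap with the next listed transcript depends on the member's own 3' UTR, so a low share is expected by construction. An overlap of at least 1 nt was found for 40 of 410 (9.76%, 7.25 to 13%), against 16.3% of all. The reverse reach does not use the member's own 3' UTR. Among 105 members whose convergent R64 neighbour had a listed 3' UTR, that 3' UTR ran past the stop codon into the member's coding region in 32 (30.5%, 22.5 to 39.8%), against 12.9% of all 766 such mRNAs. The median 3' UTR of these neighbours was 106 nt, against 112 nt over all, and the distance between the genes, which the reach depends on, was shorter for members as given here. The share was 27 of 69 members (39.1%) on the minus strand, against 16.7% of all minus-strand mRNAs, and 5 of 36 members (13.9%, 6.08 to 28.7%) on the plus strand, against 9.14% of all plus-strand mRNAs. Over both strands, the next length class, over 55 to 100 nt, was also above the 12.9% of all, with 43 of 224 (19.2%, 14.6 to 24.9%). The share was 6.83% over 100 to 200 nt and 1.74% over 200 nt.

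The farthest reach was 120 nt into MXR2, a methionine sulfoxide reductase with a 3' UTR of 53 nt, by the 173 nt 3' UTR of LSB5. CGI121, a gene of tRNA modification with a 3' UTR of 250 nt, reached 116 nt into the AMP deaminase gene AMD1 (18 nt). DAD3 (236 nt) reached 60 nt into ARC40, a subunit of the Arp2/3 complex (45 nt), PPT2 (157 nt) reached 58 nt into the autophagy gene ATG5 (35 nt), and CDC8 (71 nt) reached 52 nt into APS2 (21 nt). Both genes were members in 6 convergent pairs. This made 12 of the 105 members (11.4%) with a neighbour that was itself a member, against 13.7% of all 766.

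The efficiency element was looked for before the end of each transcript. The motif TATATA, a palindrome searched on the coding strand with overlapping matches counted once per window, was present in the last 100 nt of the annotated transcript in 144 of 410 members (35.1%, 30.7 to 39.9%), against 47.1% of all windows of this length. A window of 100 nt holds at least 45 nt of coding sequence in every member, so less of it lies after the stop codon than in longer 3' UTRs, and a lower share is in part expected by construction. In a window of 60 nt the shares were 33.2% (28.8 to 37.9%) of members and 38.3% of all. That window, too, holds coding sequence in every member, so the same limit applies to it. Of the members' windows of 100 nt with the motif, 127 held it wholly after the stop codon and 17 starting in the coding region. Among 3' UTRs of 1 to 20 nt, 5 of 45 held it (11.1%, 4.84 to 23.5%), and the share was 35.1% at 21 to 40 nt and 40.3% at 41 to 55 nt. It was 39.9% for members on the minus strand, against 47.9% of all on that strand, and 24.8% for members on the plus strand, against 46.2% of all on that strand.

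**Figure D5:**
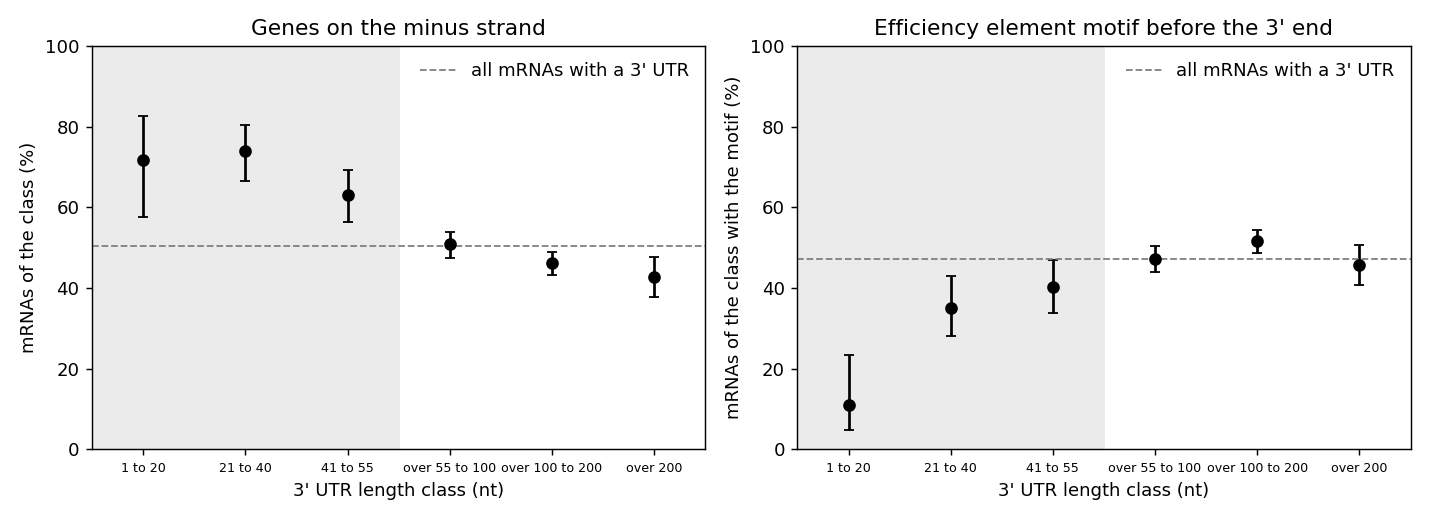
Percentage of mRNAs on the minus strand (left) and with the efficiency element motif in the last 100 nt before the annotated 3' end (right), by 3' UTR length class in nt, with 95% Wilson intervals and the share of all mRNAs as a dashed line. The shaded classes are the short 3' UTRs. The minus-strand share is 71.7% in the shortest class and 42.7% in the longest, and the motif share is 11.1% in the shortest class and 45.7% in the longest.

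A motif that starts in the coding region was in the window of 17 members (4.15%), against 0.943% of all, but the members' windows hold more coding sequence by construction. At places that do not depend on the 3' UTR, TATATA lay wholly within the last 45 coding bases in 15 of 410 members (3.66%, 2.23 to 5.95%), against 50 of 2863 of all (1.75%, 1.33 to 2.29%). Among these 15 members were 7 (1.71% of 410, 0.829 to 3.48%) in which it ran into the stop codon. Its last 2 bases were then the first 2 of TAA or TAG. This was found in 19 of all (0.664%, 0.425 to 1.03%). The 2 counts overlap and are not separate results. Of these 7 members 5 were on the minus strand. They are shown because the motif letters there belong to the coding end. The STE14 end printed above is one of them, and 5 more are given as the last 30 bases of the coding region in R64, ending with the last base of the stop codon and with TATATA in capitals.
AIT1 (chr4:137510-137539, plus strand): acgggaatactttcaacagtttaTATATAg
CSS3 (chr15:17281-17310, minus strand): ggaagaaattataaagagtcttcTATATAa
POP8 (chr2:185998-186027, minus strand): gaagaagaacaagactgtaaatgTATATAg
SBH2 (chr5:194273-194302, minus strand): ctattgacgaaatttacacacatTATATAa
SMM1 (chr14:654512-654541, plus strand): aaggttgtaccccttcccacagaTATATAa
From the motif to the annotated 3' end there were 2 nt in STE14, 12 nt in CSS3, 20 nt in SBH2, a subunit of a translocon of the endoplasmic reticulum, 35 nt in AIT1, 37 nt in POP8, a subunit of RNase P and RNase MRP, and 40 nt in SMM1, a tRNA dihydrouridine synthase. In 10 other members the motif lay in the coding region before the stop codon, at 4 nt from it in ALG13, 9 nt in VMA5, a subunit of the vacuolar proton pump, and 20 nt in RPB2, the second largest subunit of RNA polymerase II. A match describes the letters in the window and does not show that the element is used.

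Within 30000 nt of a chromosome end in R64 stood 17 members (4.11%, 2.58 to 6.48%), against 2.92% of all mRNAs with a 3' UTR. Reading frames without a gene symbol were 21 of the members (5.07%), against 4.82% of all. Stop codons of members were TAA in 197 of 410 (48%, against 48.9% of all), TAG in 112 (27.3%, 23.2 to 31.8%, against 21.8% of all) and TGA in 101 (24.6%, 20.7 to 29%, against 29.3% of all). TAG was used by 28.8% of members on the minus strand, against 22.8% of all on that strand, and by 24% of members on the plus strand, against 20.8% of all on that strand. By length, TAG was 35.6% at 1 to 20 nt, 23.4% (17.4 to 30.7%) at 21 to 40 nt and 28.4% at 41 to 55 nt. The shares of TGA in these classes were 24.4%, 20.1% and 28%, so neither difference was steady within the set. The last 60 coding bases had a median A+T share of 61.7%, the same value as over all mRNAs.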

How the data were processed

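The authors deposited an annotation of yeast transcripts as genome coordinates, counted from 1 per the design text. The sources used here do not give the genome build, the aligner or how UTR ends were set. The file holds no values per library, so depth and precision per sample are unknown. The 7 libraries were grouped by the nuclease in their labels and enter no comparison.

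Lengths, strands (start above end marks the minus strand) and overlaps were computed with Python 3.11.15, NumPy 2.4.6 and SciPy 1.17.1. Introns were gaps of at least 10 nt between exons. Symbols, neighbours and sequence came from R64 by gene name, which matched 2881 of the 2882 mRNAs. The annotation was not read at R64 positions. Sequence was used where coding lengths were equal in both (2863 mRNAs, 410 members). Members and lists were chosen with earlier results of these data known. Named genes follow a fixed rule: the 15 shortest with ties, those at the limit, the 2 shortest per list, the extremes of coding length, 5' UTR, distance and reach, and gene copies. ALG14, GET1, COX5A, NRD1, SSU72, PDC1, RDS2 and the motif members ALG13, VMA5 and RPB2 were named after their values were seen, and the motif counts at fixed places of the coding region were added then. Reading and intervals were tested on simulated data. Alternatives are given in the closing section.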

Additional observations from a re-analysis of the deposited data

How the results depend on the processing

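Alternatives on strand, and those on the strand share and the function lists, were chosen after seeing the data. Taking the same share of shortest 3' UTRs from each strand (up to 49 nt on the minus strand and up to 66 nt on the plus strand, 432 mRNAs) left each of the 10 values recomputed within its interval. Among them were the distance to the next gene (270 nt), the neighbour's reach (29.2%) and TATATA (34.4%). All 212 minus-strand mRNAs of this set and 132 of its 220 on the plus strand are members. Values close to the reported ones are thus in part expected by construction. With plus-strand members only, the median 3' UTR was 44.5 nt, the coding length 1267.5 nt (1092 nt over all on that strand), the 5' UTR 53.5 nt (52 nt), the overlap 6.92% (16.8%), the reach 13.9% (9.14%) and TATATA 24.8% (46.2%). The number of lists above all mRNAs, 12 in the report, was 7 on the plus strand, 15 on the minus strand and 11 with a limit of 40 nt. With a limit of 40 nt the minus-strand share was 73.5% and TATATA 29.6%. With neighbours from the annotation, which omits many genes, the distance was 795.5 nt (846 nt over all) and the convergent share 51.2% (51.6% over all). With a window of 60 nt TATATA was in 33.2% (38.3% over all). The overlap was 6.83% for at least 50 nt (13.7% over all) and 18.3% for pairs adjacent in R64 (30.5% over all). With TACATA and TATGTA added, 56.8% of members held a motif (70.1% over all). The other alternatives run on shares and medians, among them a lower limit of 10 nt and genes without introns, stayed within the interval of the reported value, and the cause of the differences was not tested. No paired analysis was possible because the file holds coordinates only. Depth could not be weighed.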

Other observations

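Short 3' UTRs made up different shares of the mRNAs of each chromosome. The share was highest on chromosome 9 (23 of 98, 23.5%), chromosome 1 (10 of 43, 23.3%) and chromosome 15 (51 of 254, 20.1%), and lowest on chromosome 5 (13 of 140, 9.29%) and chromosome 8 (15 of 146, 10.3%), against 14.4% over all. No intervals were computed for these shares and some counts are small, so the order is not read as a difference between chromosomes.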
